A study of Mus musculus with 8 samples.

Results

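Zbp1, Ddx58, Ifih1, Dhx58, Mavs, Tmem173, Tlr3, Tlr9 and Aim2 encode receptors of foreign or misplaced nucleic acid and their adaptors. They are 9 of the 55536 genes counted in MIN6 cells, a mouse insulinoma line that makes insulin and is used as a stand-in for beta cells. The 9 were chosen by gene symbol as a functional family around Zbp1, and the family was picked from results in which the difference between the Klf4 and control libraries of these same samples was already known. That difference is therefore given for the 9 genes as a description, without a p-value. The study asks what forced expression of the zinc-finger transcription factor Klf4 does to the transcriptome of these cells. Wild-type MIN6 cells were transfected for 48 h with Lipofectamine 3000, a lipid carrier of plasmid DNA. The 4 control cultures received the empty vector pcDNA 3, and 4 cultures received pGloMyc-Klf4, which expresses Klf4. Replicates 1 and 2 of each group belong to batch 1, and replicates 3 and 4 to batch 2. All 8 cultures thus received plasmid DNA, on backbones that by name are not the same, so the effect of Klf4 and that of the backbone cannot be told apart. The extraction protocol of the labels speaks of isolated islets, while every sample is labelled MIN6. Untransfected cells were not analysed here, so the baseline below is that of cultures given plasmid DNA, and the share of cells that took it up was not measured.

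Cells detect viral or misplaced nucleic acid with receptors sorted by compartment and ligand. In the cytosol, RIG-I (gene Ddx58) and MDA5 (Ifih1) are helicases that bind viral-type RNA and signal through MAVS on mitochondria, with LGP2 (Dhx58) as a regulator that lacks the signalling domain. In endosomes, TLR3 binds double-stranded RNA and TLR9 binds unmethylated CpG DNA. AIM2 assembles an inflammasome on cytosolic DNA, and STING (Tmem173) is the adaptor downstream of the cytosolic DNA sensor cGAS. ZBP1 binds nucleic acid in the left-handed Z conformation and can start necroptosis through RIPK3 and MLKL. Several of these genes are themselves induced by interferon, and in beta cells MDA5 is known for its link to type 1 diabetes.

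Total counts per library lay between 45417853 and 52731176. Klf4 itself had 1743 to 2060 counts in control and 205171 to 308667 counts in Klf4 libraries, which fits the labels. Of 18266 genes that passed a filter on low counts, 36.6% were called changed by edgeR's quasi-likelihood test with a batch term (Benjamini-Hochberg adjusted p under 0.05), 21.1% higher and 15.5% lower in Klf4 libraries. Of the 9 sensor genes, 7 passed the filter, and 2 of those 7 were called, Zbp1 and Ddx58, both higher. Nothing is read from that share, because the contrast was known when the genes were put together. For the same reason, a call of this contrast, its absence or its loss for any of the 9 genes, here and below, only describes the fit. The median log2 fold change was 0.23 over the 7 sensor genes that passed and -0.01 over all genes that passed. Nothing is read from these medians either. The filter keeps a gene that is high enough in either group, and Zbp1 reached it through its Klf4 libraries. In bulk RNA, a change in the number of cells that express a gene and a change in RNA per cell cannot be told apart.

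Zbp1 (ENSMUSG00000027514; GRCm38 chromosome 2, 173206612 to 173218923, minus strand) was close to undetected in control cells and low but present in all Klf4 cultures. It had 1, 2, 3 and 0 counts in control replicates 1 to 4 and 17, 11, 23 and 24 counts in Klf4 replicates 1 to 4. Every Klf4 library lay above every control library, in each batch as well as across batches. In CPM, counts scaled to library size, this was 0.0308 ± 0.0261 in control and 0.366 ± 0.0992 CPM in Klf4 libraries (SD, n = 4). The summed counts, 6 against 75, gave a ratio of 11.9, with an exact 95% interval of 5.24 to 33.6 that covers counting error only. The fitted log2 fold change was 3.46 (SE 0.55), and it leans on the prior count added to the near-zero control libraries. Leaving out each library in turn gave 2.96 to 3.88. A stricter filter of 1 CPM in at least 4 libraries left Zbp1 untested, since its highest library had 0.455 CPM. None of its exons overlaps another annotated gene.

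**Figure D1:**
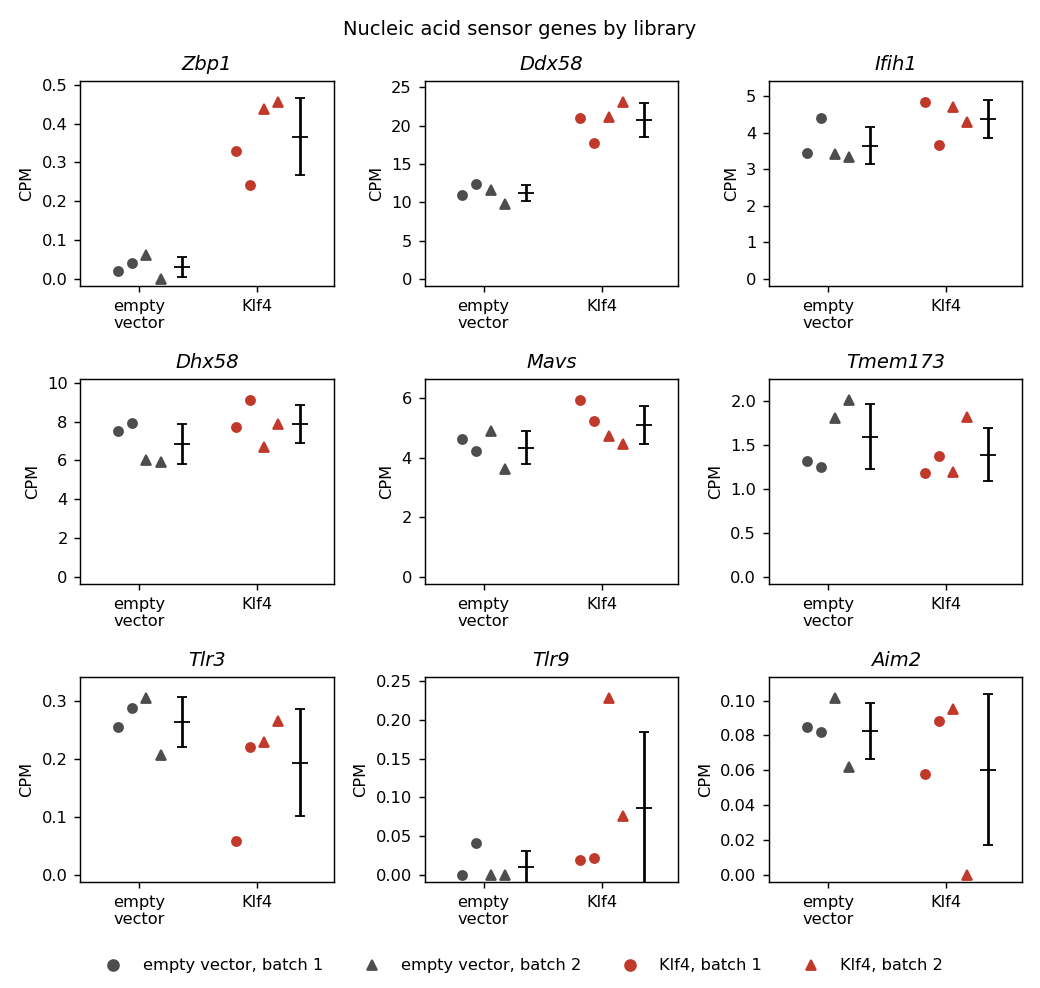
Each panel plots 1 sensor gene, with CPM on the y axis (linear, a scale of its own for each gene) and the 4 empty-vector and 4 Klf4 libraries on the x axis. Circles are batch 1, triangles batch 2, and black bars the mean ± SD of 4 libraries. The groups are apart for Zbp1 and Ddx58 and overlap for the other 7 genes. The share of all genes with groups apart was not counted, so nothing is read from this about the sensors.

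The cytosolic RNA helicases are described in turn, and differences between them were not tested. Ddx58 (ENSMUSG00000040296; chromosome 4, 40203773 to 40239828, minus strand), which encodes RIG-I, stood at 10.9, 12.4, 11.6 and 9.82 CPM in control replicates 1 to 4. In Klf4 replicates 1 to 4 it stood at 20.96, 17.8, 21.1 and 23.0 CPM. All 4 Klf4 libraries lay above the highest control library, with a 1.85-fold ratio of the means. The log2 fold change was 0.89 (SE 0.08) and lay between 0.80 and 0.95 when each library was left out in turn. Ddx58 rests on 474 to 1215 counts per library, so counting error is small beside the spread between replicates.

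Ifih1 (chromosome 2, 62595798 to 62646255, minus strand), which encodes MDA5, had 3.44, 4.40, 3.43 and 3.34 CPM in control replicates 1 to 4. Its Klf4 libraries had 4.84, 3.67, 4.72 and 4.28 CPM. Control replicate 2 stood above Klf4 replicates 2 and 4, so the groups overlapped. The log2 fold change was 0.27 (SE 0.12), which was not called. A call for Ifih1 appeared at 0.36 without control replicate 2, at 0.36 without Klf4 replicate 2 and at 0.42 in batch 2 alone.

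Dhx58 (chromosome 11, 100694884 to 100704271, minus strand), which encodes LGP2, had 7.52, 7.91, 6.03 and 5.92 CPM in control and 7.74, 9.10, 6.71 and 7.89 CPM in Klf4 libraries. The groups overlapped, with batch 1 above batch 2 in control. Its log2 fold change of 0.20 (SE 0.08) was not called, and it was called at 0.26 without Klf4 replicate 1. Of its 3272 exonic bases, 141 are shared with the antisense gene Dhx58os. The counts are not known to use strand, so reads there cannot be assigned to either gene.

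Mavs (chromosome 2, 131234063 to 131248025, plus strand), the shared adaptor of both signalling helicases, had 4.61, 4.23, 4.89 and 3.60 CPM in control libraries. It had 5.92, 5.21, 4.74 and 4.46 CPM in Klf4 libraries, which overlapped the control range. The log2 fold change was 0.23 (SE 0.11) and not called, with a call at 0.33 only in the fit without control replicate 3. Within batch 1 the Klf4 libraries lay above the control libraries, and within batch 2 they overlapped.

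The RefSeq promoter table for the GRCm38.p6 build held 6 of the 9 genes: Ddx58, Ifih1, Mavs, Tlr3, Tlr9 and Aim2. The 250 bases before the annotated start are shown for the RNA helicase that was called, for the related helicase that was not called, and for their adaptor. They are chr4:40239826-40240075 (minus strand) for Ddx58, chr2:62646256-62646505 (minus strand) for Ifih1 and chr2:131233813-131234062 (plus strand) for Mavs. Each is written 5′ to 3′ on the strand of its gene, with matches to CACCC or CCNCNCCC on either strand in capitals. These are simple forms of the GC-rich sites that KLF and SP proteins bind.
Ddx58: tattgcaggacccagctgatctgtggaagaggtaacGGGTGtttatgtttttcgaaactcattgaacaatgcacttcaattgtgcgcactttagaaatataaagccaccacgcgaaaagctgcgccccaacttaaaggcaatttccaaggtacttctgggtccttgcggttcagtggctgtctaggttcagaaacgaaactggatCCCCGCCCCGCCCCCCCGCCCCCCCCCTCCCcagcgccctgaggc
Ifih1: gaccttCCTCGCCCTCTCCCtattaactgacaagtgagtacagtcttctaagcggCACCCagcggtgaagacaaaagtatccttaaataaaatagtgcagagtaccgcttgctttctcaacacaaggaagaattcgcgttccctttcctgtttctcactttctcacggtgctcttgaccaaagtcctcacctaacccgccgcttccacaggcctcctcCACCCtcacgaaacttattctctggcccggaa
Mavs: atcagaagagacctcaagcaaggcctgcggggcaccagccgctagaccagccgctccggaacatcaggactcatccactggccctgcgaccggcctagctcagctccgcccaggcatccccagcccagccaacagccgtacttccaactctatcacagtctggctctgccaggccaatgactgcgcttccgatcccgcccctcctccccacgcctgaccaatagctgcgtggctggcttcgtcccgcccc

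CACCC occurred 1 time in the Ddx58 window, 2 times in that of Ifih1 and 0 times in that of Mavs. CCNCNCCC occurred 8 times in the Ddx58 window, as overlapping matches that begin 45 to 22 bases before the start, and 2 times in that of Ifih1. It did not occur in the Mavs window. Both motifs are common: CACCC was found in 52.0% and CCNCNCCC in 45.9% of the 32851 promoter windows of the same length. The 2 motifs can overlap each other, as in the Tlr9 window, which held CACCC 2 times and CCNCNCCC 3 times. The windows of Tlr3 and Aim2 held neither motif. The Tlr3 window (chr8:45410381-45410630) lies inside the annotated gene body, which runs to 45411080 on the minus strand. That of Aim2 (chr1:173420354-173420603) lies inside a body that begins at 173350879 on the plus strand. Both thus precede an internal start and not the outermost annotated start. A pair of GAAA repeats separated by any pair of bases, the core of the interferon-stimulated response element, was in 0 of the 6 windows and in 2.98% of all windows. Such matches describe the letters only, and no binding was measured here.

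The endosomal receptors were at the edge of detection. Tlr3 had 12, 14, 15 and 10 counts in control and 3, 10, 12 and 14 counts in Klf4 replicates 1 to 4. The groups overlapped, and Klf4 replicate 1 was the lowest library. The log2 fold change was -0.47 (SE 0.42) and not called, and it ran from -0.67 to -0.15 as libraries were left out. An antisense gene, Gm45542, shares 7.32% of the exonic bases of Tlr3. Tlr9 had 0, 2, 0 and 0 counts in control and 1, 1, 12 and 4 counts in Klf4 libraries. It did not pass the filter. Klf4 replicate 3 held 12 of its 18 Klf4 counts, so its ratio of 8.6 (exact 95% counting interval 2.06 to 76.4) rests largely on 1 library.

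Tmem173 and Aim2, the members of the cytosolic DNA arm, overlapped between the groups. Tmem173, which encodes STING, had 1.32, 1.25, 1.81 and 2.01 CPM in control replicates 1 to 4 and 1.18, 1.37, 1.20 and 1.82 CPM in Klf4 replicates 1 to 4. Its log2 fold change was -0.19 (SE 0.18), not called, and -0.29 to -0.05 with each library left out. Aim2 had 4, 4, 5 and 3 counts in control and 3, 4, 5 and 0 counts in Klf4 libraries, and it fell under the filter. Its ratio of 0.717 had a counting interval of 0.309 to 1.61, so its counts leave both a fall and a rise possible within these bounds. Aim2 lies across Cadm3 on the opposite strand, with no shared exonic base.

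**Figure D2:**
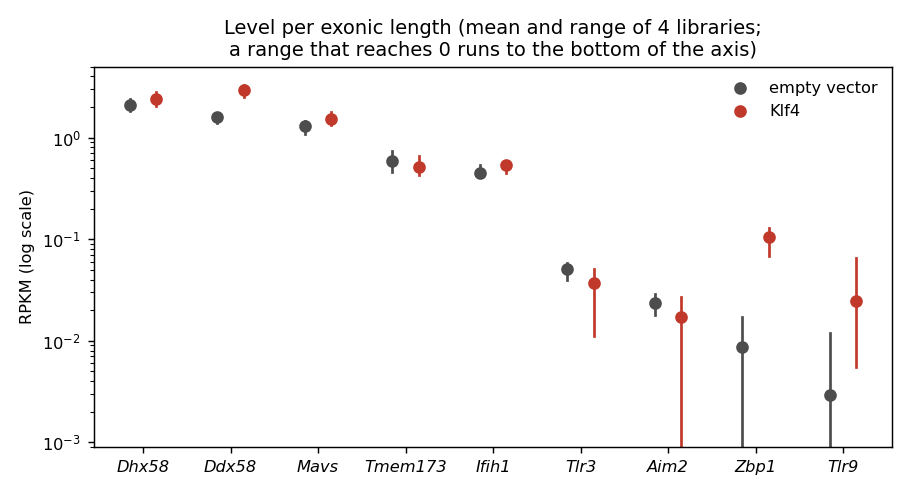
RPKM (CPM per kilobase of exon, log scale, y axis) of the 9 genes (x axis) in empty-vector (grey) and Klf4 (red) libraries. Points are means of 4 libraries and lines the range. Zbp1 moves from the eighth to the sixth place in the order, from a mean of 0.00873 to 0.104 RPKM.

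Compared per exonic length, as RPKM (CPM per kilobase of exon), the RNA helicase system was the most abundant part of the family and its members still sat below the middle of the transcriptome. Control means were 2.09 ± 0.311 RPKM for Dhx58, 1.59 ± 0.155 for Ddx58 and 1.3 ± 0.166 for Mavs (SD, n = 4). Tmem173 at 0.582 ± 0.135 and Ifih1 at 0.447 ± 0.0612 RPKM came next. The ranges of Ddx58 and Mavs overlapped, as did those of Tmem173 and Ifih1. Dhx58, the most abundant, stood above 41.3% of the genes that passed the filter. Tlr3 (0.0506 RPKM), Aim2 (0.0236), Zbp1 (0.00873) and Tlr9 (0.00295) lay below every library of the first 5 genes, and the ranges of Zbp1 and Tlr9 overlapped.

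In Klf4 libraries Ddx58 had the highest mean level of the 9, 2.94 ± 0.309 RPKM, against 2.4 ± 0.299 RPKM for Dhx58 (SD, n = 4), with overlapping ranges. Zbp1 reached 0.104 ± 0.0281 RPKM, above every library of Tlr3 (0.0111 to 0.051 RPKM). Its Klf4 level was still above only 3.67% of the genes that passed the filter. Ifih1 and Tmem173 overlapped in Klf4 libraries, at 0.536 and 0.508 RPKM.

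The size of the difference was also taken within each batch of 2 against 2 libraries. The log2 fold change of Zbp1 was 3.09 (SE 0.82) in batch 1 and 3.77 (SE 0.80) in batch 2. That of Ddx58 was 0.73 (SE 0.09) and 1.05 (SE 0.09). Ifih1 had 0.12 (SE 0.16) and 0.42 (SE 0.15), Dhx58 0.12 (SE 0.11) and 0.30 (SE 0.12), and Mavs 0.33 (SE 0.13) and 0.12 (SE 0.15). Tmem173 had -0.02 (SE 0.26) and -0.33 (SE 0.24), and Tlr3 -0.99 (SE 0.65) and -0.04 (SE 0.56). At these errors the sign is not resolved for Ifih1 and Dhx58 in batch 1, for Mavs in batch 2, or for Tmem173 and Tlr3 in either batch.

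Whether these differences varied by batch was tested separately, since the batch terms did not enter the choice of the genes. The interaction of plasmid and batch passed the threshold for 0 of the 7 genes by edgeR's quasi-likelihood test, with 1 gene, Ddx58, at an unadjusted p under 0.05. An adjusted p from DESeq2 (Wald test) was had for 5 of the 7, not for Zbp1 and Tlr3, and 0 of those 5 passed, with 1 gene at an unadjusted p under 0.05. For Zbp1, with 0 to 3 control counts, the interaction of 0.65 had an SE of 1.47, so its test says nothing of a difference between batches. Over all genes 0.766% passed in edgeR. The smallest edgeR adjusted p was 0.378, for Ddx58, with an interaction of 0.31 (SE 0.13) on the log2 scale.

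Between batches, 1 of the 7 genes passed, against 25.1% of all genes. Dhx58 was lower in batch 2 by a log2 difference of -0.28 (SE 0.08; edgeR adjusted p = 0.0167). This call was lost without Klf4 replicate 2 (edgeR adjusted p = 0.0675) and without Klf4 replicate 3 (0.053). For Tmem173 the batch difference was 0.41 (SE 0.18; edgeR adjusted p = 0.104), and it passed without Klf4 replicate 3 at 0.55 (edgeR adjusted p = 0.0318).

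**Figure D3:**
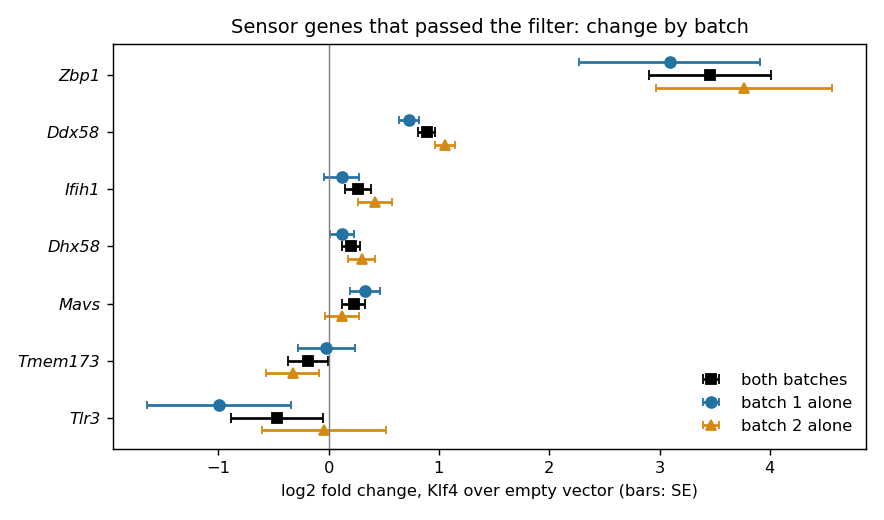
Log2 fold change of Klf4 over empty-vector libraries (x axis; bars are SE) for the 7 sensor genes that passed the filter (y axis), from both batches (black squares), batch 1 alone (blue circles) and batch 2 alone (orange triangles). Zbp1 lies at 3.09 and 3.77 and Ddx58 at 0.73 and 1.05 in batches 1 and 2, and the other 5 genes lie nearer to 0 or have wide bars.

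The genes around the 9 sensors were listed by function in 7 lists of 151 genes: partners and further sensors, adaptors and kinases, effectors, nucleases, interferon signalling and interferon-stimulated genes. Of these, 150 had a row in the table and 118 passed the filter. By edgeR's quasi-likelihood test over all genes, 37 were higher and 17 lower in Klf4 libraries, with a median log2 fold change of 0.06. These 54 are 45.8% of the genes tested in the lists, beside 36.6% over all genes, and no test of the lists was made. The lists were drawn up with earlier results of these data known. Their shares and the adjusted p-values of their genes, here and below, therefore only describe. Without the batch term, 25 rather than 37 were higher and 8 rather than 17 lower, and the calls lost included Oasl1, Cgas, Nlrc3, Casp8, Gsdmd, Mlkl, Socs1 and Cxcl10. In batch 1 alone the calls of Oasl1, Cgas, Nlrc3, Il1b, Casp8 and Socs1 were lost. In batch 2 alone those of Prkdc, Nlrc3, Mlkl, Xrn1 and Cxcl10 were lost. The adjusted p-values of single genes below come from edgeR's test with the batch term, unless another fit is named.

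Among further RNA sensors and partners of RIG-I, 17 of 22 listed genes passed the filter, 5 higher and 5 lower (58.8% called). The higher genes included 4 of the OAS family, whose enzymes sense double-stranded RNA. Oas2 went from 1.73 ± 0.387 to 4.10 ± 0.685 CPM (SD, n = 4), which is 1.24 on the log2 scale (SE 0.14) at an edgeR adjusted p of 2.48e-07. Oas3 went from 0.130 ± 0.0799 to 1.24 ± 0.505 CPM (SD, n = 4), which is 3.20 on the log2 scale (SE 0.35) at an edgeR adjusted p of 1.09e-07. Oas2 and Oas3 are neighbours on chromosome 5, at 120730333 to 120749853 and 120753098 to 120777661.

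Other members of the OAS family had smaller values. Oasl1 rose by 0.39 (SE 0.09) and Oasl2 by 0.22 (SE 0.08) on the log2 scale. Oas1a (0.20, SE 0.18), Oas1b (0.02, SE 0.15) and Oas1g (0.21, SE 0.18) did not pass the threshold. These related genes may share reads, which was not measured. Differences between OAS genes were not tested. Eif2ak2, which encodes the RNA-activated kinase PKR, had -0.07 (SE 0.04) and was not called. The 5 lower genes, Dhx9, Dhx36, Ddx1, Ddx21 and Ddx3x, are abundant helicases with general roles in RNA metabolism, and they moved by -0.13 to -0.08.

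**Figure D4:**
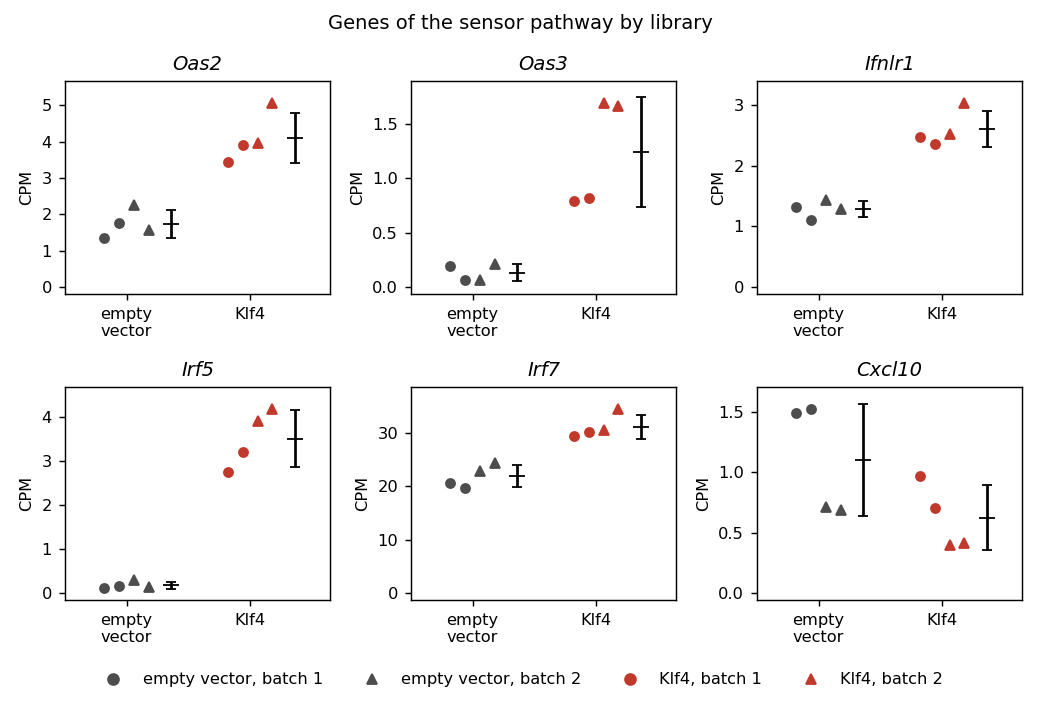
CPM by library (y axis, linear) for Oas2, Oas3, Ifnlr1, Irf5, Irf7 and Cxcl10, with empty-vector libraries in grey and Klf4 libraries in red. Circles are batch 1, triangles batch 2, and bars the mean ± SD of 4 libraries. Klf4 libraries lie above all control libraries in the first 5 genes, and for Cxcl10 they lie below within each batch but overlap across batches. All were drawn from the called genes of largest change in their lists. The share of all genes with groups apart was not counted, so nothing is read from this separation.

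Among other DNA sensors, 13 of 16 listed genes passed the filter, 2 higher and 5 lower (53.8% called). Lrrfip1, which encodes a cytosolic nucleic acid-binding protein, went up from 34.9 ± 1.502 to 79.7 ± 10.02 CPM (SD, n = 4), which is 1.18 on the log2 scale (SE 0.05) at an edgeR adjusted p of 6.27e-15. Cgas, the enzyme upstream of STING, went from 18.4 ± 0.807 to 16.4 ± 0.782 CPM (SD, n = 4), which is -0.17 on the log2 scale (SE 0.06) at an edgeR adjusted p of 0.0159. The Cgas call was lost without control replicate 3 (edgeR adjusted p = 0.0593). Polr3a, the largest subunit of RNA polymerase III, fell by 0.18 and Prkdc, the DNA-dependent protein kinase, by 0.22 on the log2 scale. In batch 2 alone Prkdc had -0.11 and was not called (edgeR adjusted p = 0.12). The interferon-inducible Ifi203 (-0.09, SE 0.14) and Mndal (0.48, SE 0.20) were not called.

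Among adaptors, kinases and interferon regulatory factors, 21 of 23 passed the filter, 8 higher and 1 lower (42.9% called). Irf5, a transcription factor downstream of the Toll-like receptor adaptor MyD88, had 0.106, 0.164, 0.284 and 0.124 CPM in control and 2.75, 3.20, 3.90 and 4.17 CPM in Klf4 libraries. The groups did not overlap (4.34 on the log2 scale, SE 0.22, edgeR adjusted p = 2.05e-13), and 14.1% of the exonic bases of Irf5 are shared with Tnpo3 on the opposite strand. Ticam2, an adaptor of Toll-like receptor 4, rose by 2.08 (SE 0.19, edgeR adjusted p = 4.53e-09), but 14.5% of its exonic bases are shared with Tmed7. Irf7, the interferon-inducible regulator of interferon genes, went up from 21.9 ± 2.10 to 31.2 ± 2.24 CPM (SD, n = 4), which is 0.51 on the log2 scale (SE 0.05) at an edgeR adjusted p of 2.11e-08. Ticam1, the adaptor of TLR3, rose by 0.39 (SE 0.06). Irf3 at 0.14 and Ikbke at 0.27 were also higher, while Tbk1, the kinase shared by MAVS and STING, had -0.08 (SE 0.04) and was not called. Nlrc3, a negative regulator of STING, was higher by 1.02 (SE 0.33, edgeR adjusted p = 0.0197), on 5 to 39 counts per library. That call was lost without control replicate 4 (edgeR adjusted p = 0.0873), Klf4 replicate 1 (0.0585) or Klf4 replicate 4 (0.0811).

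Of 13 effector genes of inflammasomes and necroptosis, which act below AIM2 and ZBP1, 8 passed the filter, 4 higher and 2 lower (75% called). Ripk1 rose by 0.15 (SE 0.04, edgeR adjusted p = 0.003), and Casp8, which restrains necroptosis, had 0.24 (SE 0.07, edgeR adjusted p = 0.011). The Casp8 call was lost without control replicate 3 (edgeR adjusted p = 0.0519) or Klf4 replicate 3 (0.0881). Mlkl, the executioner of necroptosis, had -0.17 (SE 0.06, edgeR adjusted p = 0.0366), with an adjusted p of 0.0543 under the replicate block and 0.0524 under the 1 CPM filter. It was also lost without control replicate 1 (0.0662), control replicate 4 (0.105), Klf4 replicate 1 (0.104) or Klf4 replicate 2 (0.0517). Il1b rose by 0.39 and Gsdmd, the pore-forming protein of pyroptosis, by 0.22. In batch 1 alone Il1b had 0.26 and was not called (edgeR adjusted p = 0.202). Ripk3, the kinase that ZBP1 engages, fell under the filter with 1, 6, 1 and 0 counts in control and 14, 7, 13 and 5 counts in Klf4 libraries. Ripk3 was named with its values known, and so were the uncalled genes of these lists other than Ifnb1 and the called genes beyond the 4 of largest change in a list. Pycard, the adaptor AIM2 needs, had 0 to 2 counts in every library.

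Of 12 genes for clearance and editing of nucleic acid, 10 passed the filter, and the 2 that were called (20%) were lower: Pnpt1 at -0.18 (SE 0.03) and Xrn1 at -0.21 (SE 0.05). Xrn1 had -0.34 in batch 1 alone and -0.08 in batch 2 alone, where it was not called (edgeR adjusted p = 0.397). The RNA editor Adar (-0.05, SE 0.04) and Samhd1 (0.07, SE 0.03) were not called. Trex1, the cytosolic DNA exonuclease, had no count in any library. All of its exonic bases lie within exons of Atrip, so this 0 cannot be read as a level.

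Interferon transcripts were absent or nearly so. Ifnb1, Ifna1, Ifna2, Ifna4, Ifnl3 and Ifng had no count in any of the 8 libraries. Of 25 interferon, receptor and JAK-STAT genes, 16 passed the filter, 10 higher and 0 lower (62.5% called, beside 36.6% of all genes), with a median log2 fold change of 0.21. Ifnlr1, the specific chain of the interferon lambda receptor, rose from 1.29 ± 0.137 to 2.60 ± 0.297 CPM (SD, n = 4), which is 1.01 on the log2 scale (SE 0.15) at an edgeR adjusted p of 8.48e-06. Its partner chain Il10rb rose by 0.39 (SE 0.07), and 14.9% of its exonic bases are shared with Gm21970. Ifngr1, a chain of the interferon gamma receptor, rose by 0.60 (SE 0.05, edgeR adjusted p = 1.64e-09). Both chains of the type I receptor, Ifnar1 (-0.07, SE 0.03) and Ifnar2 (0.02, SE 0.05), missed the threshold, as did Stat2 (-0.06, SE 0.04). The feedback inhibitor Socs1 was higher by 0.56 (SE 0.20, edgeR adjusted p = 0.0328). Its call was lost without control replicate 3 (edgeR adjusted p = 0.148), Klf4 replicate 2 (0.0816) or Klf4 replicate 4 (0.157).

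Of 40 interferon-stimulated genes, 33 passed the filter, 8 higher, 2 lower and 23 not called (30.3% called), with a median log2 fold change of 0.11. Ube2l6, the conjugating enzyme for ISG15, rose from 4.83 ± 0.373 to 7.55 ± 1.05 CPM (SD, n = 4), which is 0.64 on the log2 scale (SE 0.09) at an edgeR adjusted p of 8.54e-06. Psmb8, an immunoproteasome subunit, rose by 0.50 (SE 0.07) and Xaf1, a pro-apoptotic protein, by 0.75 (SE 0.20), each past the threshold. Of the exonic bases of Psmb8, 14.7% are shared with an antisense gene. The chemokine gene Cxcl10 fell by 0.81 on the log2 scale (SE 0.22, edgeR adjusted p = 0.00599), at 1.49 and 1.52 against 0.968 and 0.707 CPM in batch 1 and at 0.71 and 0.684 against 0.399 and 0.417 CPM in batch 2. Rsad2, an antiviral enzyme, fell by 0.22 (SE 0.07). The 23 genes not called included Ifit1 with 0.16 (SE 0.17), Ifit3 0.15 (SE 0.17), Isg15 0.22 (SE 0.25) and Mx1 0.31 (SE 0.22).

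**Figure D5:**
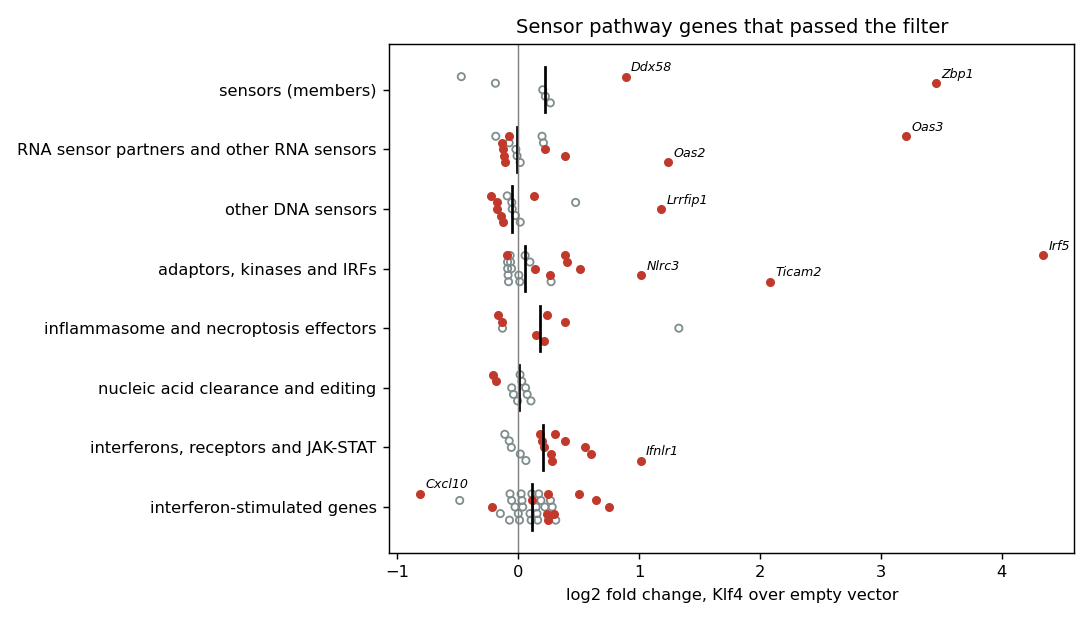
Log2 fold change of Klf4 over empty-vector libraries (x axis) for the reported genes that passed the filter, by list (y axis). Filled red points were called in the fit over all genes, open points were not, and black ticks are list medians. Zbp1 at 3.46, Oas3 at 3.20 and Irf5 at 4.34 lie farthest to the right, and most interferon-stimulated genes lie within 0.5 of 0.

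The pattern of Zbp1 over the 8 libraries was compared with that of 14268 genes of at least 1 CPM on average. The measure was Pearson r of the log2 of CPM plus 0.5. The added 0.5 is larger than the highest Zbp1 value of 0.455 CPM, and no other constant was tried. The highest r was 0.994, for Arap1, a GTPase-activating protein, Slc8a2, a sodium-calcium exchanger, and Csrnp1, a nuclear protein. Rrad, a small GTPase, and Bcor, a transcriptional corepressor, had 0.993. All 5 were higher in each Klf4 library than in any control library and stood higher in Klf4 replicates 3 and 4 than in replicates 1 and 2. A Pearson r above 0.9 was reached by 1522 genes, and the 8 points share the contrast between the groups, so these values only describe.

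Zbp1 has 5 annotated neighbours within 100 kb. Pck1, the gluconeogenic enzyme gene 47339 bases away, had 0, 1, 2 and 2 counts in control and 10, 13, 23 and 11 counts in Klf4 libraries, with no overlap, and was under the filter. Pmepa1, 5535 bases away, had 4.95 ± 0.162 CPM in control and 5.58 ± 0.467 CPM in Klf4 libraries (SD, n = 4), with a log2 fold change of 0.17 (SE 0.09) that was not called although the groups did not overlap. Ctcfl, Ctcflos and Pmepa1os had 0 to 6 counts per library.

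Markers of other cells were measured because several sensors are abundant in leukocytes. Of 15 leukocyte markers, 7 passed the filter, with Ncf1 higher (log2 fold change 1.59, SE 0.31) and Cd74 lower (-0.28, SE 0.10). Their summed level was 46.2 to 51.1 CPM in control and 42.2 to 50.3 CPM in Klf4 libraries, and Ptprc, the pan-leukocyte gene, had 0 to 7 counts. Of 7 fibroblast markers, 4 passed and 3 were higher: Dcn, Pdgfra and Col1a1. Their sum was 2.65 to 3.92 CPM in control and 21.05 to 27.49 CPM in Klf4 libraries, to which Dcn alone gave a mean of 0.0461 and 17.6 CPM, while Lum was at 0 in all 8 libraries. Of 7 endothelial markers, 4 passed, and Cdh5 and Plvap were higher, with sums of 13.8 to 17.1 and 18.8 to 21.6 CPM and 0 to 2 counts of Kdr. Markers of other islet cells summed to 59.5 to 89.0 and 55.5 to 95.6 CPM. The 10 beta-cell markers summed to 25330 to 32110 CPM in control and 23660 to 32360 CPM in Klf4 libraries, with 5 of them lower. The part of these markers in the differences of Zbp1 and Ddx58 was not tested.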

How the data were processed

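The authors deposited whole-number read counts per gene, 1 column per library, not normalised. Per the submitters' processing notes, FastQC, STAR, featureCounts and edgeR were used with the mm10 build, and the name of the deposited counts says that reads were trimmed with cutadapt. Versions, strand setting and annotation are not given in the sources used here. All 55536 pairs of symbol and identifier were those of GENCODE M21 (GRCm38), which gave positions, exonic lengths and overlaps.

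Counts were analysed in edgeR 4.0.16 (limma 3.58.1, R 4.3.3): filterByExpr with a minimum count of 10, TMM scaling, glmQLFit with terms for batch and plasmid, and Benjamini-Hochberg adjustment over all 18266 genes that passed. The series' description names edgeR with batch correction. CPM and RPKM were computed here from the counts with TMM factors. Alternatives were no batch term, the replicate number as a block, DESeq2 1.42.0 size factors or Wald test, limma-voom, other filters, each batch alone and each library left out. The procedure was run on simulated counts with no batch effect and with changes only in genes above 1 CPM on average. That run does not cover batch differences or genes as low as Zbp1. Figures were made with Python 3.11.15 and matplotlib 3.10.9.

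Replicates of a group differed beyond sampling noise (chi-square per degree of freedom of at least 3.96), so none was merged. Deviations from group means correlated at 0.48 to 0.64 between same-numbered libraries over 10485 genes, and at -0.05 and 0.086 once batch means were removed: the numbers, taken from the titles, pair libraries through the batch the labels give.

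The 9 genes and the lists were chosen with earlier results of these data known. Genes named were the 9, Klf4, up to 4 called genes of largest change per list, Ifnb1 and Cgas, the 5 genes most like Zbp1 and its neighbours within 100 kb. Cgas was listed under its older symbol Mb21d1 as well. Some genes of the lists are not reported here by name. Intervals cover counting error only.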

Additional observations from a re-analysis of the deposited data

Results flagged for a closer look

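A check for a library far from the remaining 3 libraries in a group ran 82 times and picked out 4 values, where chance gives about 1 in 20, or 4.1. That rate assumes 4 values drawn alike, while each group spans both batches and some counts are near 0. It is therefore only a rough guide. Control replicate 2 had 4.4 CPM of Ifih1 (214 counts), while the rest of the controls had 3.34 to 3.44 CPM. With all libraries Ifih1 was not called. A call appeared without this library, and also without Klf4 replicate 2 and in batch 2 alone, as given above. Control replicate 2 also had 0.0411 CPM of Tlr9, which is 2 counts where the other control libraries had 0. Klf4 replicate 3 had 68.3 CPM of Prkdc, above 60.6 to 61.9 CPM in the other Klf4 libraries. Control replicate 1 had 4.27 CPM of Ube2l6, below 4.97 to 5.05 CPM in the other control libraries.

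The effect of the plasmid differed between the batches for Klf4 itself, by an interaction of 0.371 on the log2 scale (edgeR adjusted p = 0.0057).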

How the results depend on the processing

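Leaving out the batch term gave 4116 changed genes against 6684, 1159 lower genes against 2828, and 8 lower genes in the lists against 17, and it ended the calls of Oasl1, Cgas, Nlrc3, Casp8, Gsdmd, Mlkl, Socs1 and Cxcl10. Batch 1 alone gave 1583 lower genes and 11 in the lists, and batch 2 alone gave 1804 and 8. With the replicate block, 6284 genes changed, with 37 higher and 16 lower genes in the lists. Of the genes named by the stated rule, Mlkl lost its call and no other call changed. Other called genes named in the lists and markers were not followed one by one through the alternatives. The interaction was called for 140 genes, for 265 without the filter, and for 48 to 261 as libraries were left out. Signs turned, always without a call, for the interaction of Zbp1 (-0.279 to 4.37 as libraries were left out) and for the batch differences of Ifih1 (-0.162 to 0.0352) and Ddx58 (-0.026 to 0.125, with -0.00295 without Klf4 replicate 4). The cause of these changes was not tested. Depth limits Zbp1, Tlr3, Tlr9 and Aim2, which had at most 24 counts in a library.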
